A study of Mus musculus with 18 samples.

Results

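Msx1, Msx2, Pitx1, Lhx6, Lhx8, Dlx1, Dlx2, Dlx5 and Barx1 are homeobox genes that pattern the mouth and jaws. Here they were followed through 18 RNA-seq libraries labelled as mouse squamous epithelium, a label that the markers below do not bear out in every block. They were taken by symbol, and all 9 were found among the 26143 genes of the table; 8 were tested and Barx1 was too low. The samples form 4 groups. WT is 3 libraries from esophagus of wild type mice. Tongue makes up the rest: p53 is 3 libraries heterozygous for a p53 R172H allele behind a LoxP-STOP-LoxP cassette (LSL), called gain of function in the labels, E20 is 6 libraries with LSL PIK3CA H1047R, and E20/p53 is 6 libraries with both LSL alleles and K14-Cre. R172H lies in the DNA-binding domain of p53, and H1047R activates the catalytic subunit of PI3-kinase. Cre, which removes the STOP cassette, is named in the label of E20/p53 alone, where the keratin 14 promoter drives it in basal cells of stratified epithelium. Age and sex are not in the labels used here, nor do those labels say which libraries come from separate animals or cultures, so the p-values below reflect how far these libraries differ from one another, which may be technical spread only. No group holds tongue without a mutant allele, so tissue and genotype cannot be told apart in any comparison with WT.

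Homeobox genes encode transcription factors that bind short AT-rich DNA through a helical domain, the homeodomain, and they give cells of the embryo a position. In the first pharyngeal arch, which forms the jaws and much of the tongue, FGF and BMP signals from the oral epithelium switch on Lhx6, Lhx8 and Barx1 (FGF) or Msx1 and Msx2 (BMP) in the neural crest mesenchyme beneath, and Dlx genes expressed in nested domains separate upper from lower jaw. Pitx1 is best known for hindlimb identity, and it is also expressed in oral epithelium and mandibular mesenchyme.

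Each library held 14592044 to 18176060 counted reads. Levels are given as mean ± SD of CPM, the common depth-scaled read unit, here a gene's reads over the library's deposited scaled total; 1 read is worth 0.056 to 0.0687 CPM, so several of these genes sit near the counting limit. The 6 E20 libraries fell into a block of libraries 1 to 3 and a block of libraries 4 to 6, and so did the 6 E20/p53 libraries: Pearson r across all genes was 0.993 to 0.995 inside a block but 0.953 to 0.978 between the 2 blocks of a group, no closer than libraries of different groups (0.935 to 0.98). The labels name no such blocks, and they were known from earlier results of these data, so levels are described by block and no test is made between blocks. The genes whose alleles define the groups do not check the labels, since an mRNA level does not show the allele: Trp53 stood at 25.8 ± 0.895 CPM in WT, 81.7 ± 6.50 in p53, 187 ± 11.1 and 200 ± 7.72 in the E20 blocks, and 179 ± 10.8 and 312 ± 2.65 in the E20/p53 blocks. Pik3ca, the mouse gene of that catalytic subunit, stood at 126 ± 2.96 CPM in WT, 98.5 ± 3.31 in p53, 78.8 ± 1.84 and 96.8 ± 2.32 in the E20 blocks, and 78.3 ± 2.11 and 88.4 ± 0.331 in the E20/p53 blocks.

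The labelled tissue was checked against its markers. Krt5 and Krt14, keratins of basal squamous cells, reached 126 and 483 CPM in E20/p53 1-3. In E20/p53 4-6 Krt5 was at 0 reads and Krt14 at 0.199 CPM, and in E20 4-6, p53 and WT mean Krt5 was 0.0784 CPM or less. The 8 basal keratinocyte markers summed to 1447 ± 11.2 CPM in E20/p53 1-3, 425 ± 22.3 in WT, 131 ± 8.95 in E20 1-3 and 30.3 to 40.8 in the other blocks. The sum of fibroblast markers ran the other way, at 2189 ± 34.3 CPM in E20/p53 1-3 and 5051 ± 183 in WT against 12070 to 23380 elsewhere. Col1a1, Col1a2, Col3a1, Dcn, Pdgfra, Pdgfrb and Fap followed this sum. Vim, Lum and Thy1 did not, with Vim at 3523 CPM in WT, 2034 in E20/p53 1-3 and 2148 to 3703 elsewhere. The 9 skeletal muscle markers summed to 2311 ± 27.0 CPM in p53, 739 to 798 in E20 and E20/p53 4-6, and 6.79 to 11.6 in E20/p53 1-3 and WT, where Myod1, Myog and Myf5 were at 0 reads. The 11 suprabasal markers summed to 70.2 CPM in E20/p53 1-3 and 8.35 to 59.1 elsewhere. Simple epithelial markers reached 281 ± 9.08 CPM in WT and at most 12.0 elsewhere, with Krt18 alone at 228 CPM in WT. Endothelial, leukocyte, Schwann cell, and bone and cartilage lists summed to at most 18.6 CPM in any block. In bulk RNA, fewer cells of a type and less RNA per cell cannot be told apart, and the part of these markers in the levels below was not tested except where a value is given.

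**Figure D1:**
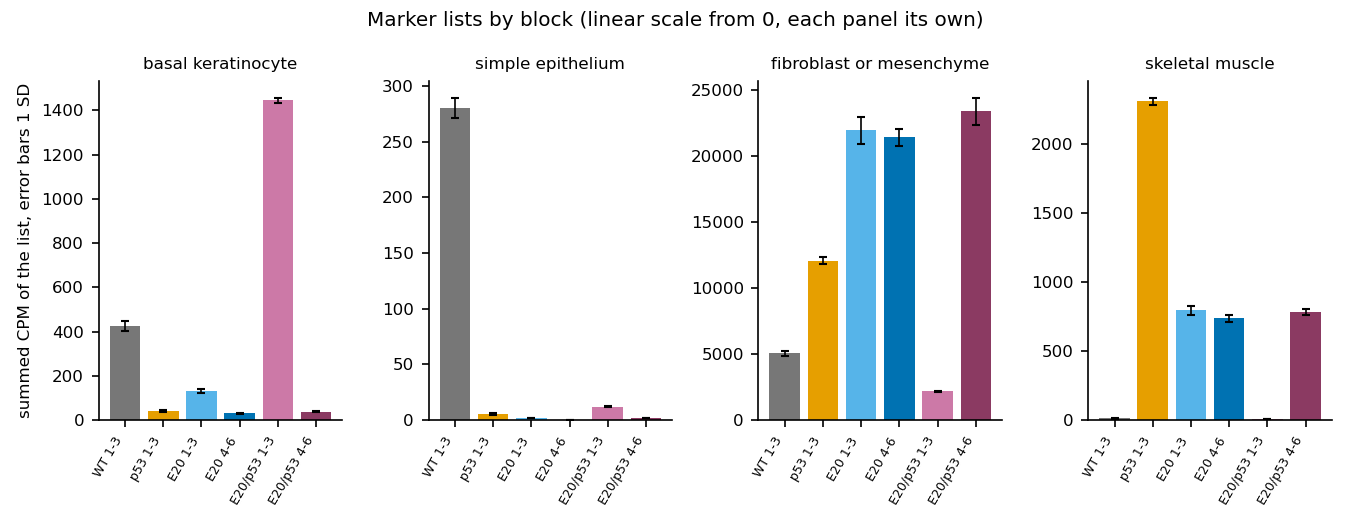
Summed CPM of 4 marker lists (y axis, linear from 0, each panel with its own scale) in each block of 3 libraries (x axis); bars are means and error bars 1 SD. E20/p53 1-3 had the highest basal keratinocyte sum at 1447 CPM and the lowest fibroblast sum at 2189 CPM, and p53 had the highest muscle sum at 2311 CPM.

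Across the 6 comparisons between groups, 27 of 48 tests of these genes were called by limma at an adjusted p under 0.05. Against WT, Msx1 and Lhx6 were higher in each of the 3 mutant groups and Dlx2 was lower in each. Among the tongue groups, E20/p53 had less Msx1 and Lhx6 and more Dlx1 than either single mutant group, Lhx8 held 625 of its 639 reads in p53, and Dlx5 was present in E20 and E20/p53 but at 1 read in p53. In 16 of the 27 calls the lower group had no library at the 0.626 CPM minimum (Dlx5 4, and Lhx6, Lhx8, Msx1 and Msx2 3 each), so the gene was tested only through groups where it was higher, and the counts that follow are a description. E20/p53 against E20 called 4 of 8 genes, 2 higher and 2 lower, where 42.6% of all 15224 genes tested were called, 23.0% higher and 19.6% lower. E20/p53 against p53 called 5 of 8 (25.8% of all genes, 12.8% higher and 13.0% lower), 2 higher and 3 lower, and E20 against p53 called 3 of 8 (31.0%, 14.5% higher and 16.5% lower), 1 higher and 2 lower.

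p53 against WT called 4 of 8 (54.2% of all genes), E20 against WT 6 of 8 (55.2%) and E20/p53 against WT 5 of 8 (48.1%), with 3 genes higher each time (29.3%, 29.0% and 26.6% of all genes) and 1, 3 and 2 lower (24.8%, 26.3% and 21.6%). With 8 genes, most of these shares lie near the share of all genes and are not a result about the 8. The median log2 difference of the 8 genes was 0.03 in E20/p53 against E20, -0.93 in E20/p53 against p53, -0.41 in E20 against p53, -0.055 in p53 against WT, 0.35 in E20 against WT and 0.30 in E20/p53 against WT, where the median of all genes lay between -0.01 and 0.05. The groups did not overlap for 4, 5, 4, 7, 7 and 5 of the 8 genes in that order, against 22.5%, 32.5%, 45.6%, 81.8%, 63.6% and 50.4% of all genes. The comparisons share groups, so their calls are not independent. With the 6 block means as the samples, which leaves 2 residual degrees of freedom, 0 of the 48 tests were called by limma, 17 had an unadjusted p under 0.05, and 0 to 8 of all genes were called in a comparison. Every call below therefore counts the libraries of a block as replicates.

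**Figure D2:**
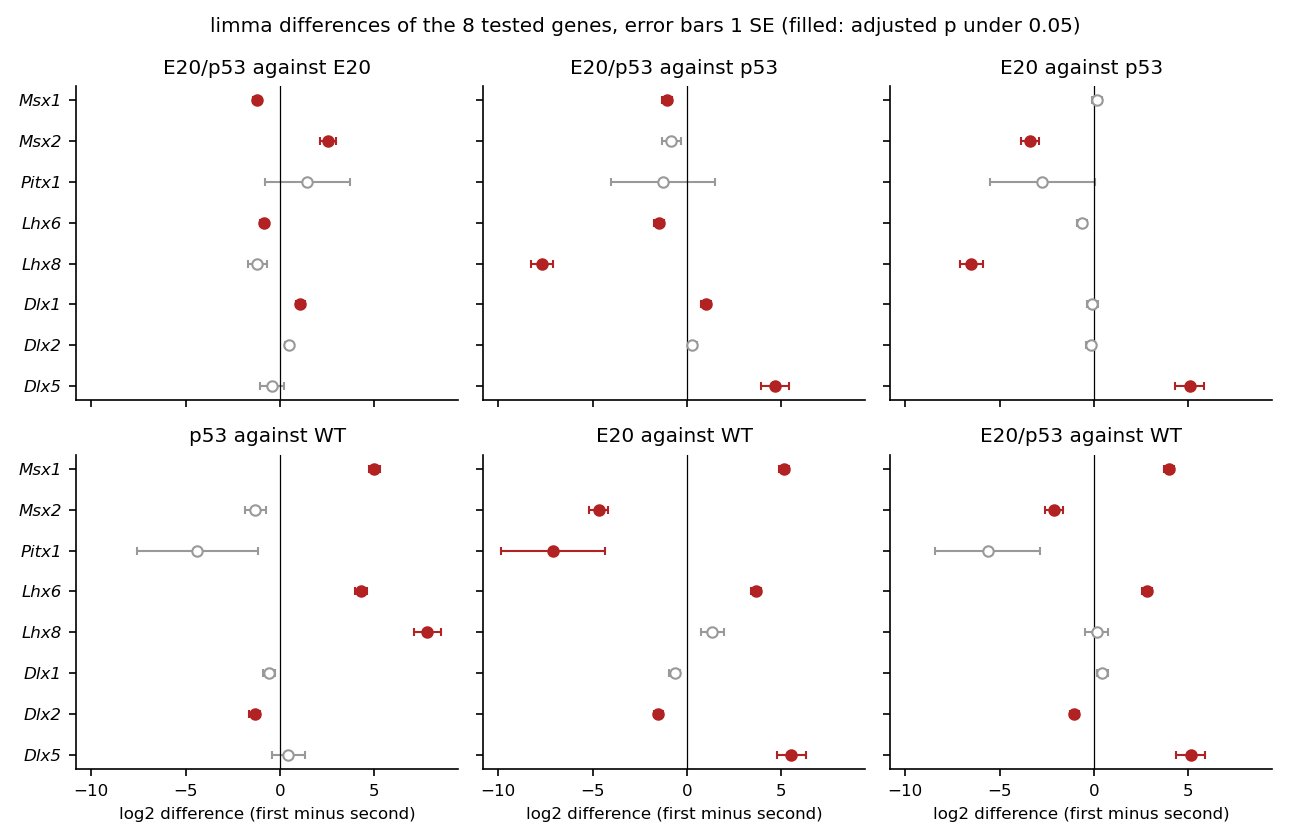
limma log2 differences (x axis, first group minus second, error bars 1 SE) of the 8 tested genes (y axis) in the 6 comparisons; filled points have an adjusted p under 0.05. Pitx1 has the widest error bars, with SE of 2.27 to 3.20, and Msx1 and Lhx6 lie to the right of 0 in all 3 comparisons with WT. No WT library reached the 0.626 CPM minimum for Msx1 or Lhx6, so their fills in those comparisons are a description only.

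Msx1 and Msx2 are paralogous repressors that act downstream of BMP signals; mice without Msx1 have cleft palate and arrested teeth, and Msx2 acts in skull bones, teeth and skin appendages. Msx1 lies on chromosome 5 at 37820485 to 37824583 and Msx2 on chromosome 13 at 53466884 to 53473074, both on the minus strand (GENCODE M21, build mm10). Their promoter windows run from 250 bases before to 50 after the start in RefSeq's table for GRCm38.p6. They are shown because the 2 paralogs differed in opposite directions between WT and E20. Capitals mark the homeodomain core TAAT or its complement ATTA, counted on both strands with overlapping matches included. The windows are chr5:37824536-37824835 for Msx1 and chr13:53472731-53473030 for Msx2, each printed 5′ to 3′ along the minus strand.
Msx1: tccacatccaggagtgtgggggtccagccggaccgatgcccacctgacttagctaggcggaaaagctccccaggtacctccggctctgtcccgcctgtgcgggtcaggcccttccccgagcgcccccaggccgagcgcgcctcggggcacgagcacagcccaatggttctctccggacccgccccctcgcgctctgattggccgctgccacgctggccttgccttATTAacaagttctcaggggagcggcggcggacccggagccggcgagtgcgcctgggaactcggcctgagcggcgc
Msx2: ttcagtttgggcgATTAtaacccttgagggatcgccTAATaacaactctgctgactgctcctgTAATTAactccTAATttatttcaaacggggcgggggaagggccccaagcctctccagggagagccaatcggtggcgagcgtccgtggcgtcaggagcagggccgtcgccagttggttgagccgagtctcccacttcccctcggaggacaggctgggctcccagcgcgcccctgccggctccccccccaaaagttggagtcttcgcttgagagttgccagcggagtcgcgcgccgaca
The Msx1 window held 1 core and 29 CpG dinucleotides, and the Msx2 window 5 cores, among them a palindromic TAATTA, and 22 CpG. Of 32851 RefSeq windows of the same length, 58.0% held TAAT and 5.29% TAATTA, and the median window held 7 CpG. These matches describe letters only and were not tested as binding sites.

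Msx1 was absent from WT at 0 reads in all 3 libraries and present in every tongue library. It measured 1.74, 1.76 and 2.14 CPM in p53, 1.57, 3.21 and 2.38 in E20 libraries 1 to 3, and 1.49, 2.14 and 2.20 in E20 libraries 4 to 6. In E20/p53 it measured 0.617, 0.729 and 0.955 CPM in libraries 1 to 3 and 1.25, 0.966 and 0.922 in libraries 4 to 6. The p53 and E20 libraries overlapped, and all 6 E20/p53 libraries lay below them. Msx1 fell in E20/p53 by 1.19 ± 0.21 (SE) on the log2 scale against E20 (limma, adjusted p = 0.000332) and by 1.04 ± 0.26 against p53 (adjusted p = 0.0088). The second call was lost without p53 library 3 (log2 -0.94, adjusted p = 0.0514), with adjusted p from 0.00133 to 1 over its 30 alternatives. Against WT, Msx1 was at least 31.4-fold higher in p53, at least 36.2-fold higher in E20 and 15.2-fold higher or more in E20/p53. These bounds use a floor of 3 reads over the WT group. Msx1 passed the filter on low values through tongue libraries alone, so these 3 differences are given without p-values.

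Msx2 was highest in WT and near its counting limit in E20, the reverse of Msx1 between those groups. It measured 5.96, 5.23 and 6.50 CPM in WT, 2.54, 2.48 and 2.08 in p53, and 0.0687 to 0.408 in the 6 E20 libraries, which held 17 reads in all. The E20/p53 blocks differed, with 0.555, 0.729 and 0.730 CPM in libraries 1 to 3 and 2.86, 2.27 and 2.44 in libraries 4 to 6, a 3.76-fold ratio of block means. All 6 E20 libraries lay below all 6 of E20/p53, whose libraries 4 to 6 overlapped p53. Msx2 was higher in E20/p53 than in E20 by 2.55 ± 0.40 (SE) on the log2 scale (limma). In E20 it fell by 3.38 ± 0.49 against p53 and by 4.67 ± 0.49 against WT. No E20 library reached the 0.626 CPM minimum, so these 3 differences are given without p-values. Against WT, Msx2 fell in E20/p53 by 2.12 ± 0.49 (limma, adjusted p = 0.0021). The difference of p53 from WT, -1.29 ± 0.57, was not called (adjusted p = 0.0657), although no library overlapped. Without E20/p53 library 1 that comparison was called (adjusted p = 0.0477), as it was with p53 and WT alone in the fit (9.61e-06), in a range of 9.61e-06 to 0.704 over 30 alternatives. Between E20/p53 and p53 the Msx2 difference of -0.83 (adjusted p = 0.225) became -1.74 (0.000749) without E20/p53 4-6 and 0.09 (0.879) without E20/p53 1-3, in a range of 0.000749 to 1 over the alternatives.

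The ratio of Msx2 to Msx1 reads inside a library, which does not depend on scaling, was 1.28 ± 0.269 in p53, 0.110 ± 0.0534 and 0.0616 ± 0.0298 in the E20 blocks, and 0.888 ± 0.118 and 2.43 ± 0.190 in the E20/p53 blocks (n = 3 each). In WT, 295 Msx2 reads stood against 0 Msx1 reads. No E20 library reached the lowest ratio of any p53 or E20/p53 library, 0.765.

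**Figure D3:**
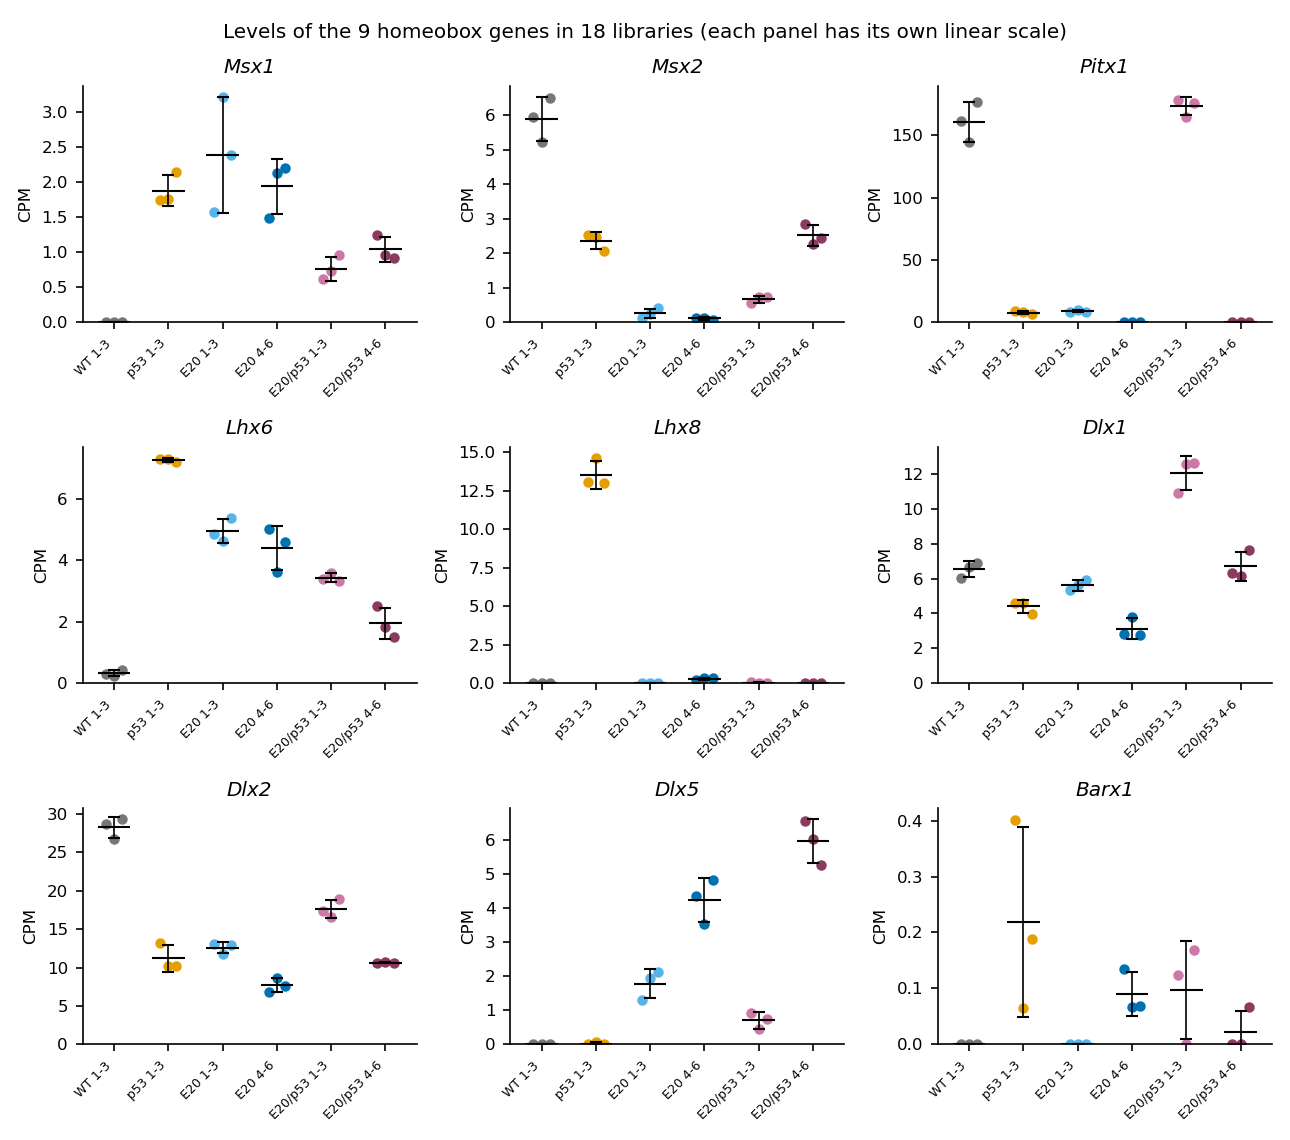
CPM (y axis, linear from 0, each panel with its own scale) of the 9 genes in all 18 libraries, 1 point each, by block (x axis); long lines are block means and error bars 1 SD. Pitx1 stands near 161 CPM in WT and 173 CPM in E20/p53 1-3 and near 0 in E20/p53 4-6, Lhx8 stands at 13.5 CPM in p53, and Barx1 stays at 0.402 CPM or less.

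Pitx1, a bicoid-class activator, lies on the minus strand of chromosome 13 at 55825051 to 55836192. It was the most abundant of the 9 genes in WT and in E20/p53 1-3 and also the one that differed most between blocks. WT held 161, 145 and 177 CPM and E20/p53 libraries 1 to 3 held 178, 165 and 176, which overlapped. E20/p53 libraries 4 to 6 held 0 reads each. With a floor of 3 reads over the block (0.0605 CPM), Pitx1 was at least 2863-fold higher in E20/p53 1-3. The E20 blocks differed in the same direction, at 8.52, 9.70 and 8.24 CPM in libraries 1 to 3 against 4 reads in all in libraries 4 to 6, a 98.0-fold ratio. p53, at 8.91, 7.95 and 6.43 CPM, overlapped E20 1-3.

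A group mean does not describe such values, and the limma results for Pitx1 followed the blocks. Pitx1 was called in E20 against WT alone (log2 -7.10 ± 2.78 SE, adjusted p = 0.0393). It did not hold without any 1 of E20 libraries 4, 5 and 6 (0.0703, 0.068 and 0.0704) or WT libraries 1, 2 and 3 (0.0912, 0.0884 and 0.0942), and adjusted p ran from 0.000406 to 0.58 over its alternatives. For E20/p53 against E20 the difference of 1.47 (adjusted p = 0.627) was -4.27 (0.0187) without E20/p53 1-3 and 7.21 (0.0004) without E20/p53 4-6, in a range of 0.0004 to 0.953. For E20/p53 against p53 the difference of -1.26 (0.765) was -7.00 (0.00382) without E20/p53 1-3 and 4.48 (0.0248) without E20/p53 4-6, in a range of 0.00382 to 1. Against WT the E20/p53 difference of -5.63 (0.105) was -11.4 (2.24e-05) without E20/p53 1-3 and 0.11 (0.958) without E20/p53 4-6; it was called without any 1 of E20/p53 libraries 1, 2 and 3 (0.0481, 0.0496 and 0.0483). In p53 against WT no library overlapped, and the difference of -4.37 (0.262) was called with those 2 groups alone in the fit (1.58e-12), in a range of 1.58e-12 to 0.787.

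Pitx1 was high in the blocks with the highest basal keratinocyte sums, 1447 CPM in E20/p53 1-3 and 425 in WT, and low where that sum was 131 CPM or less. Single markers did not all follow, and Itga6 alone held 323 CPM of the WT sum. Krt5, Krt14, Trp63 and Lamb3 were lower in WT (0.0784, 13.4, 6.09 and 3.02 CPM) than in E20 1-3 (6.51, 66.6, 15.7 and 4.51). Itga6, Col17a1, Itgb4 and Krt15 were higher in WT than in E20 1-3. Pax9 and Tfap2a, transcription factors of oral epithelium and facial mesenchyme, had the same high blocks, with Pax9 at 51.7 CPM in E20/p53 1-3, 33.6 in WT and 0 reads in E20 4-6 and E20/p53 4-6, and Tfap2a at 86.9, 68.4, 2.16 and 5.77 CPM. The relation of Pitx1 to cell type content was not tested.

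Lhx6 and Lhx8 are LIM-homeobox factors that are expressed together in arch mesenchyme in the embryo, where they act in palate and molar formation. Lhx6 lies on chromosome 2 at 36081953 to 36105408 and Lhx8 on chromosome 3 at 154306294 to 154330659, both on the minus strand. In these libraries Lhx6 was found in every tongue library and Lhx8 almost only in p53, which held 625 of its 639 reads. Lhx6 measured 7.30, 7.30 and 7.18 CPM in p53, 4.84, 4.62 and 5.38 in E20 libraries 1 to 3 and 5.01, 3.60 and 4.60 in E20 libraries 4 to 6. E20/p53 held 3.39, 3.59 and 3.32 CPM in libraries 1 to 3 and 2.50, 1.82 and 1.51 in libraries 4 to 6, and WT held 0.230 to 0.421. So the order ran from p53 through E20, whose blocks overlapped, to E20/p53 1-3, E20/p53 4-6 and WT, with no overlap at any other step.

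Lhx6 fell in E20/p53 by 0.85 ± 0.21 (SE) on the log2 scale against E20 (limma, adjusted p = 0.00459) and by 1.48 ± 0.26 against p53 (adjusted p = 0.000627). In E20 against p53 the difference of -0.64 ± 0.26 was not called (adjusted p = 0.0738), and it was called without E20/p53 library 6 (0.0417), in a range of 0.00545 to 1 over its alternatives. Against WT, Lhx6 was 22.7-fold higher in p53, 14.6-fold higher in E20 and 8.39-fold higher in E20/p53. Lhx6 passed the filter on low values through tongue libraries alone, so these 3 differences are given without p-values. Of the 8 tested genes, Lhx6 and Msx1 were the 2 whose log2 levels were most alike, with Pearson r of 0.94 over the 18 libraries, which fall into 6 blocks and are not independent points.

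Lhx8 measured 13.1, 14.6 and 13.0 CPM in p53. It was at 0 reads in WT, in E20 libraries 1 to 3 and in 5 of the 6 E20/p53 libraries, and at 1 read in E20/p53 library 1. E20 libraries 4 to 6 held 0.203, 0.334 and 0.343 CPM, which is 13 reads. Lhx8 passed the filter on low values through the p53 libraries alone, so p53 had to differ from the other groups, and these 3 differences are given without p-values. Mean Lhx8 was 92.3-fold lower in E20 than in p53. The ratio of p53 to E20/p53, with 1 read in the latter, was 1374 with a 95% counting interval of 245.7 to 54340, and p53 was at least 226-fold higher than WT. In E20 against WT and E20/p53 against E20, Lhx8 was not called. No library of WT, E20 or E20/p53 reached the 0.626 CPM minimum, so these 2 comparisons are given without p-values. Both changed sides of the threshold when any 1 of E20 libraries 1, 2 and 3, at 0 reads each, was left out. E20/p53 against E20 also did so without E20/p53 library 1.

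The p53 block that held Lhx8 also had the highest skeletal muscle sum, 2311 CPM, with Myod1 at 153 and Myog at 120 CPM. Not every muscle marker followed Lhx8. Myf5 was lower in p53 (60.2 CPM) than in E20 1-3 (86.8) and E20/p53 4-6 (76.9). Des, at 743 CPM in p53, also held 555 and 640 CPM in the E20 blocks and 368 in E20/p53 4-6. Thy1, of the fibroblast list, stood at 125 CPM in p53 against 0.609 or less elsewhere. Hand2, a bHLH factor of the lower jaw, was likewise at 3.71 CPM in p53 and at most 0.272 in any other block. The 3 genes most like Lhx8 over the 18 libraries were Stac3, a muscle excitation-contraction protein (r = 0.95), Ptgis, prostacyclin synthase (0.94), and Ctsk, cathepsin K (0.94). Lhx8 was not tested against any of these marker levels, and with 3 libraries p53 genotype and cell content cannot be told apart. Its promoter window, chr3:154330511-154330810 on the minus strand of GRCm38.p6, is shown for contrast with the CpG-rich Msx windows, and it held no TAAT core, 4 CpG and 47.0% G and C.
Lhx8: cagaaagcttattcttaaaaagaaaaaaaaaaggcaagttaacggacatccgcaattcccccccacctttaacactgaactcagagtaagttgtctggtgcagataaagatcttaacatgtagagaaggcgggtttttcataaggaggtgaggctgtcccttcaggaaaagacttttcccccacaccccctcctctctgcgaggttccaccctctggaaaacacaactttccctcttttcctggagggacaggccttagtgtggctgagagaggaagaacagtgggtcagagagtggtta
Of the windows of all 7 genes that RefSeq's table holds (9 windows, 3 of them for Lhx6), Barx1 had the most CpG at 50 and Lhx8 the fewest, where the median window of all genes has 7.

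Dlx1 and Dlx2 form a convergent pair on chromosome 2, Dlx1 at 71528113 to 71533981 on the plus strand and Dlx2 at 71543408 to 71546754 on the minus strand, 9426 bases apart. Distal-less genes of this pair are active in upper and lower jaw mesenchyme, and Dlx2 also in oral epithelium. Dlx2 was highest in WT at 28.7, 26.7 and 29.4 CPM. It measured 13.3, 10.2 and 10.2 CPM in p53, 13.1, 11.8 and 12.9 in E20 libraries 1 to 3 and 6.84, 8.68 and 7.62 in E20 libraries 4 to 6. In E20/p53 it measured 17.4, 16.6 and 18.9 CPM in libraries 1 to 3 and 10.5, 10.7 and 10.6 in libraries 4 to 6. Libraries 1 to 3 lay above libraries 4 to 6 in both groups, by 1.64-fold in E20 and 1.66-fold in E20/p53. p53 overlapped both E20 1-3 and E20/p53 4-6, which did not overlap each other.

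Dlx2 fell against WT by 1.34 ± 0.28 (SE) on the log2 scale in p53 (limma, adjusted p = 0.000783), by 1.52 ± 0.24 in E20 (6.25e-05) and by 1.04 ± 0.24 in E20/p53 (0.00202). Between the tongue groups it was not called: E20/p53 minus E20 was 0.47 ± 0.20 (adjusted p = 0.0644), E20/p53 minus p53 0.30 ± 0.24 (0.375) and E20 minus p53 -0.17 ± 0.24 (0.631). Dlx2 in E20/p53 against E20 was called without E20 library 1 (0.0392) or 3 (0.0411) or E20/p53 library 4 (0.0396), 5 (0.042) or 6 (0.0404), in a range of 0.000449 to 0.849 over its alternatives.

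Dlx1 was highest in E20/p53 libraries 1 to 3, at 10.9, 12.6 and 12.6 CPM, followed by libraries 4 to 6 at 6.31, 6.14 and 7.64, which overlapped WT at 6.02, 6.67 and 6.92. It measured 4.62, 4.63 and 3.97 CPM in p53, 5.32, 5.61 and 5.92 in E20 libraries 1 to 3 and 2.84, 3.80 and 2.75 in E20 libraries 4 to 6. Each E20/p53 library lay above each E20 and p53 library. Dlx1 was higher in E20/p53 than in E20 by 1.09 ± 0.24 (SE) on the log2 scale (limma, adjusted p = 0.00155) and higher than in p53 by 1.01 ± 0.29 (adjusted p = 0.0168). The latter call was lost without p53 library 2 (0.0507) or 3 (0.0726) and without E20/p53 1-3 (log2 0.59, 0.112), in a range of 2.43e-05 to 1 over its alternatives. Against WT no Dlx1 difference was called, and E20 against WT was called without E20 library 3 (0.0429, main 0.0717, range 0.00602 to 0.715).

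Inside each library, Dlx2 gave 4.34 ± 0.385 reads per Dlx1 read in WT, 2.54 ± 0.336 in p53, 2.25 ± 0.188 and 2.49 ± 0.257 in the E20 blocks and 1.47 ± 0.135 and 1.60 ± 0.187 in the E20/p53 blocks. The 2 blocks of a group thus overlapped in this ratio although the levels of both genes differed between them, and no E20/p53 library (at most 1.74) reached an E20 or p53 library (at least 2.10). This ratio was formed after the levels had been seen and is given without a test. Dlx1as, an antisense transcript that covers Dlx1 and shares 335 exonic bases with it, stood at 0.499 to 1.63 CPM and rose in E20/p53 against E20 by 1.07 ± 0.30 on the log2 scale (limma, adjusted p = 0.00915). The strand setting of the counting is not given in the sources used here, so reads of Dlx1 and Dlx1as cannot be told apart where they share bases.

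**Figure D4:**
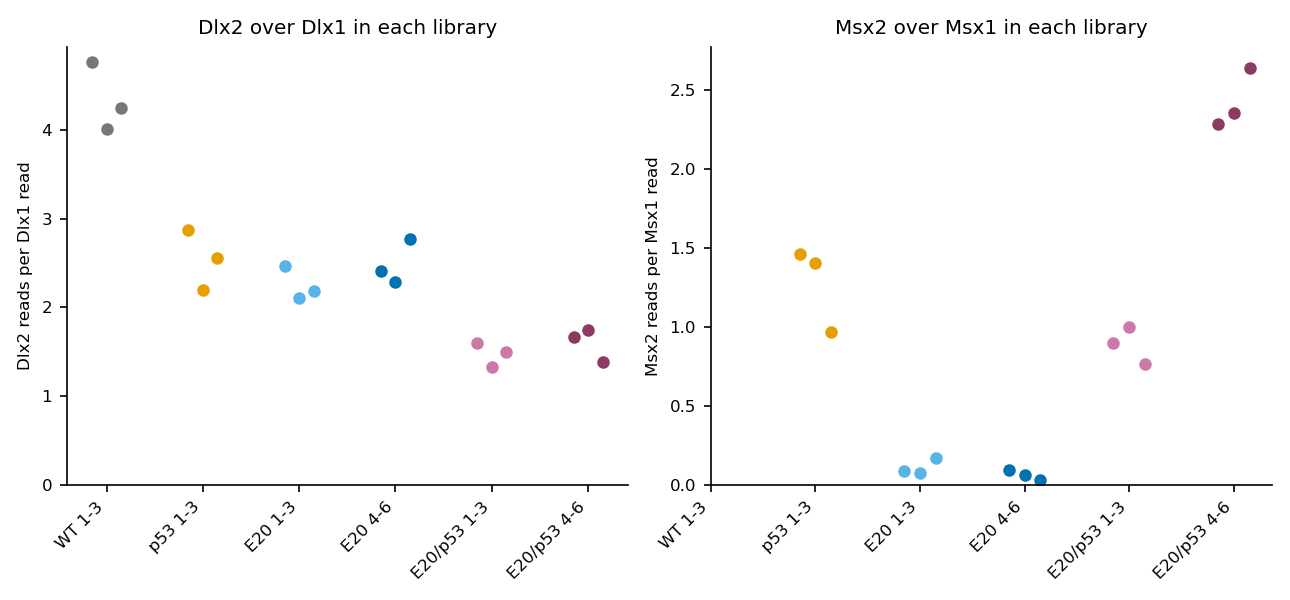
Reads of a gene per read of its paralog inside each library (y axis, linear from 0), 1 point a library, by block (x axis): Dlx2 over Dlx1 on the left and Msx2 over Msx1 on the right, where WT has no point because Msx1 had 0 reads. On the left the E20/p53 libraries lie at 1.74 or less and the others at 2.10 or more, and on the right no E20 library reaches 0.765.

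Dlx5, a marker of the lower jaw domain that acts with Dlx6 downstream of endothelin, lies on the minus strand of chromosome 6 at 6877805 to 6882085, 9236 bases from Dlx6. It was at 0 reads in WT and 1 read in the 3 p53 libraries together. E20 held 1.30, 1.93 and 2.11 CPM in libraries 1 to 3 and 4.33, 3.54 and 4.81 in libraries 4 to 6. E20/p53 held 0.925, 0.448 and 0.730 CPM in libraries 1 to 3 and 6.55, 6.02 and 5.27 in libraries 4 to 6. Each E20 and E20/p53 library lay above each WT and p53 library, and the 4 blocks did not overlap one another; block means differed 2.38-fold in E20 and 8.48-fold in E20/p53, with libraries 4 to 6 higher.

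Dlx5 passed the filter on low values through E20 and E20/p53 libraries alone, which limits its tests against p53 and WT. Its 4 called differences from those groups are therefore given without p-values. It was higher than p53 in E20 by 5.08 ± 0.76 (SE) on the log2 scale (limma, ratio 137 with a counting interval of 24.4 to 5440). In E20/p53 it was higher than p53 by 4.68 ± 0.76 (ratio 151, interval 26.9 to 5984). Against WT it was at least 50.2-fold higher in E20 and 55.6-fold higher or more in E20/p53. Between E20/p53 and E20 the difference of -0.41 ± 0.62 was not called (adjusted p = 0.621), and it was 1.11 (0.0259) without E20/p53 1-3 and -1.92 (0.000927) without E20/p53 4-6, in a range of 0.000927 to 0.997. The Dlx5 to Dlx6 read ratio also differed between blocks: 83 Dlx5 reads stood against 1 Dlx6 read in E20 1-3, and the ratio was 3.41 ± 1.12 in E20 4-6, 1.04 ± 0.523 in E20/p53 1-3 and 7.84 ± 1.16 in E20/p53 4-6. Dlx6 rose in E20/p53 against p53 by 3.27 ± 0.94, given without a p-value because p53 held 1 Dlx6 read. Dlx6os1, an antisense transcript across Dlx6 that shares no exonic base with it, rose there by 2.27 ± 0.55 (limma, adjusted p = 0.00675). Dlx6 held 0 reads in WT, 1 read each in p53 and E20 1-3, 1.31 CPM in E20 4-6 and 0.742 and 0.764 CPM in the E20/p53 blocks, so its highest block was not that of Dlx5.

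Barx1, which FGF induces at the molar-forming end of the jaw and which also acts in stomach and esophagus mesenchyme, lies on the plus strand of chromosome 13 at 48662998 to 48666507. It gave 20 reads in all 18 libraries: 10 in p53 (0.402, 0.0652 and 0.189 CPM), 4 in E20 4-6, 5 in E20/p53 1-3, 1 in E20/p53 4-6 and 0 in WT and E20 1-3. No library reached the 0.626 CPM minimum for testing. Barx1 was therefore not tested. Each p53 library held at least 1 read against 0 in WT, a separation that rests on 10 reads in all.

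**Figure D5:**
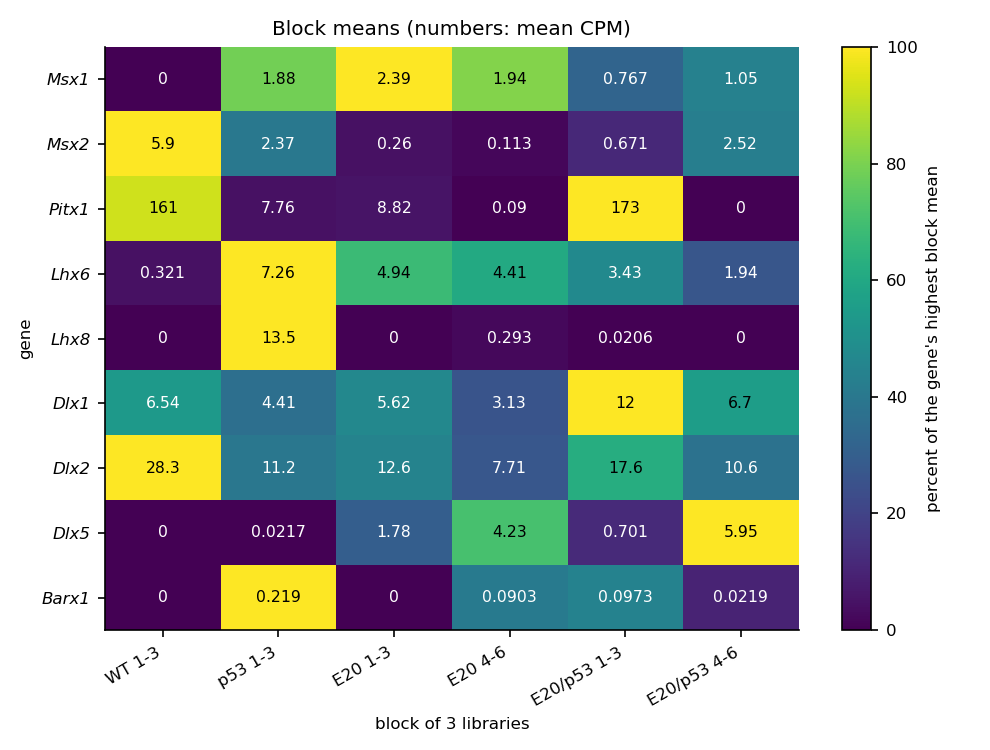
Mean CPM of each gene (rows) in each block of 3 libraries (columns), printed in the cell; colour is the percent of that gene's highest block mean. The highest block was WT for Msx2 and Dlx2, p53 for Lhx6, Lhx8 and Barx1, E20 1-3 for Msx1, E20/p53 1-3 for Pitx1 and Dlx1, and E20/p53 4-6 for Dlx5.

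Compared between genes as CPM per kilobase of exon (GENCODE M21; the annotation behind the reads is not given), Pitx1 was highest of the 9 in WT (60.5 ± 6.00) and E20/p53 1-3 (65.2 ± 2.71). Lhx8 led in p53 at 5.35 ± 0.360, ahead of Dlx2 at 3.92 ± 0.627. Dlx2 led in E20 1-3 (4.42 ± 0.246), E20 4-6 (2.70 ± 0.323) and E20/p53 4-6 (3.72 ± 0.0249), where Dlx5 followed at 2.63 ± 0.285.

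Counts of calls in the lists that follow read against the share of all genes called: 23.0% higher and 19.6% lower in E20/p53 against E20, 12.8% and 13.0% in E20/p53 against p53, 14.5% and 16.5% in E20 against p53, and 29.3% and 24.8%, 29.0% and 26.3%, and 26.6% and 21.6% in p53, E20 and E20/p53 against WT. No list was tested as a set. Of 21 other homeobox genes of the oral region, 18 were tested, and 3 rose and 5 fell in E20/p53 against E20, 5 rose and 7 fell against p53, and 4 rose and 4 fell in E20 against p53; their median log2 differences were 0.11, -0.49 and 0.04. Prrx1, a mesenchymal factor of limbs and face, was the most abundant of them and fell in E20/p53 by 1.43 ± 0.13 (SE) on the log2 scale against E20 (limma, adjusted p = 2.9e-07) and by 1.32 ± 0.16 against p53 (1.78e-05), as did Six4 against p53 by 1.32 ± 0.21 (0.000307). Prrx1 measured 146 and 231 CPM in the E20/p53 blocks, 458 to 533 in p53 and E20, and 46.9 in WT. Isl1, a LIM-homeobox gene of the oral ectoderm and lower jaw, rose in E20/p53 against E20 by 4.51 ± 0.66 (5.06e-05), at 22.9 and 10.2 CPM against 0.221 and 1.96. Against WT, 8 rose and 5 fell in p53, 7 and 5 in E20, and 7 and 3 in E20/p53 (medians 0.74, 0.61 and 0.62), with Shox2 among those that rose (log2 6.33, 5.07 and 5.04).

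Of 15 tested jaw and palate transcription factors outside the homeobox family, 3 rose and 9 fell in E20/p53 against E20, 4 rose and 5 fell against p53, and 5 rose and 2 fell in E20 against p53, with median log2 differences of -0.70, -0.28 and 0.23. Runx2, the bone lineage factor, rose in E20/p53 by 0.86 ± 0.06 (SE) on the log2 scale against E20 (limma, adjusted p = 1.07e-08), while Foxf2 fell by 1.01 ± 0.09 (2.08e-07) and Osr2, a palate and tooth factor, by 2.63 ± 0.24 (3.78e-07). Foxc1 rose against p53 by 2.02 ± 0.11 in E20 (3.01e-09) and by 1.17 ± 0.11 in E20/p53 (1.87e-06). Hand2 fell against p53 by 4.90 ± 0.65 in E20 and by 5.82 ± 0.65 in E20/p53. Its block means outside p53 lay under the 0.626 CPM minimum for testing, so these differences are given without p-values. Against WT, 6 rose and 5 fell in p53, 6 and 6 in E20, and 4 and 6 in E20/p53 (medians -0.18, 0.10 and -0.295), with Nr2f1 lower in each (log2 -1.60, -1.36 and -1.88).

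Signals that switch these genes on in the embryo were mostly low or uneven. Fgf8, the main oral inducer of Lhx6, Lhx8 and Barx1, was at 0.0560 CPM or less in every block. Fgf10 stood at 31.7 CPM in E20 4-6 against 5.83 or less elsewhere, and Bmp4, the inducer of Msx genes, at 108 CPM in E20 1-3, 70.6 in WT and 23.4 to 33.8 in the other blocks. Of 15 tested FGF, BMP and endothelin genes, 4 rose and 2 fell in E20/p53 against E20, 1 rose and 1 fell against p53, and 1 rose and 3 fell in E20 against p53, with medians of 0.37, 0.11 and -0.997. Edn1, the endothelin that sets lower jaw identity and Dlx5 in the embryo, rose in E20/p53 against E20 by 4.07 ± 0.80 (SE) on the log2 scale (limma, adjusted p = 0.000715) and against p53 by 3.07 ± 0.98 (0.0301), and Ece1, which processes it, fell against p53 by 1.57 ± 0.28 in E20/p53 (0.000658) and by 1.28 ± 0.28 in E20 (0.00222). Against WT, 4 rose and 3 fell in p53, 3 and 3 in E20, and 6 and 3 in E20/p53 (medians 0.07, -0.01 and -0.03). Edn1 measured 26.4 CPM in WT, 12.9 and 6.34 in the E20/p53 blocks, 2.35 and 0.0674 in the E20 blocks and 1.02 in p53.

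Of 13 tested cofactors of homeodomain proteins, 2 rose and 5 fell in E20/p53 against E20, 1 rose and 0 fell against p53, and 1 rose and 1 fell in E20 against p53, with medians of -0.21, 0.02 and 0.11. Tle1, a Groucho corepressor, rose in E20/p53 by 0.93 ± 0.09 (SE) on the log2 scale against E20 (limma, adjusted p = 8.61e-07) and by 0.87 ± 0.11 against p53 (4.08e-05), and it was lower than WT by log2 -1.05 to -1.98 in the 3 mutant groups. Ldb1, the adaptor of LIM-homeodomain factors such as Lhx6 and Lhx8, fell in E20 against p53 by 0.31 ± 0.08 (0.00432), and Lmo4, a LIM-only protein that competes for Ldb1, rose there by 0.51 ± 0.13 (0.00582). Against WT, 1 rose and 5 fell in p53, 1 and 4 in E20, and 0 and 5 in E20/p53 (medians -0.47, -0.01 and -0.47). Of the 5 tested neighbours, Metap1d, which lies beside Dlx1, rose against p53 by 0.83 ± 0.07 in E20 (2.71e-07) and 1.00 ± 0.07 in E20/p53 (3.91e-08), and Sem1, near Dlx6, was called in no comparison.

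The genes whose log2 levels were most like a given gene's over the 18 libraries were searched among 11712 genes, and the r values are descriptions of 6 blocks rather than of independent points. For Pitx1 these were Slc20a2, a phosphate transporter (r = 0.996), S100a6 (0.979) and Bnc1, a basonuclin of basal keratinocytes (0.979); Bnc1 stood at 57.9 CPM in E20/p53 1-3, 30.4 in WT and 0.0628 in E20/p53 4-6. For Lhx6 they were Il6 (0.97), Cand2 (0.97) and Cemip (0.96), and for Msx1 Tshz3 (0.988), Dipk2a (0.985) and Sirpa (0.985). For Msx2 they were Ankle2, Ola1 and Ltbp1 (0.97 each), for Dlx1 Arl16 (0.96), Spin1 (0.96) and Tmx2 (0.95), for Dlx2 Fbxl21 (0.98), Fbln7 (0.97) and Fam107b (0.97), and for Dlx5 Cnpy3 (0.96), Kif7 (0.95) and Ccdc157 (0.95). Spans differed widely among these: Ankle2 ran from 55.8 to 88.2 CPM over the blocks while Msx2 ran from 0.113 to 5.90.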

How the data were processed

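RNA was sequenced from 18 libraries (TruSeq Stranded mRNA kit, per the labels' protocols) in 4 groups taken from the labels. Per the submitters' processing notes, bcl2fastq 1.8.4, Trimmomatic and featureCounts were used with build mm10; for the aligner, the gene annotation, the strand setting and the normalization, nothing is stated: not given in the sources used here. Values as deposited are on a log2 scale, and tested on the values they equal log2(reads + 1) minus log2 of a scaled library total. Whole reads were recovered for 100% of values within a tolerance of 0.001 times the read count, and never under 0.001 reads. At high counts any value would pass this tolerance, so the share is a check of lower counts only. CPM was computed as reads over the scaled total. Totals were 14592044 to 18176060 reads a library.

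The deposited log2 values were fitted with limma 3.58.1 in R 4.3.3 (group means, mean-variance trend, all 18 libraries, 14 residual degrees of freedom). The fit was run on simulated data first. Those simulated libraries were independent and had no blocks, and changes were placed only in genes well above the counting limit. The simulation thus does not check the fit for blocks or for genes near 0 reads. A gene was tested with at least 3 libraries at 0.6255 CPM or more (10 reads at the median depth) and at least 15 reads in all, which 15224 of 26143 genes met. Benjamini-Hochberg adjustment ran over those genes within each comparison, and a call needs an adjusted p under 0.05. Fold changes are ratios of mean CPM, except that ratios with a counting interval (1 to 3 reads in the lower group) are summed reads over summed scaled totals; where a group had 0 reads the floor was 3 reads over the group, and counting intervals (95%) and floors cover counting error only.

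The genes and lists were chosen with earlier results of these data known. Named are all 9 genes in each comparison, Trp53 and Pik3ca, up to 3 called genes per list and comparison by adjusted p with the most abundant gene, and the 3 genes of highest Pearson r among those at 5 CPM or more in some block. Other genes of the lists, with their CPM, and the ratios of read pairs were chosen after their values were seen. 1 gene of the lists is not reported here and was left out of its list's counts. Alternatives were median-of-ratios scaling, no filter and a stricter one, log2(CPM + 1), voom, 2 groups alone, 6 block means, a replicate block, and leaving out each library or block.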

Additional observations from a re-analysis of the deposited data

Results flagged for a closer look

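Lhx8 in E20/p53 had 1 library far from the others: library 1 held 1 read (0.0617 CPM) and the other 5 held 0, so the gap to the nearest library over the whole range of deposited values was 0.796, above Dixon's 95% critical value for 6 libraries. The flag rests on 1 read. It was the only flag in 18 checks of groups of 6, of which chance flags about 1 in 20.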

How the results depend on the processing

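Of the 48 gene comparisons, all kept their direction and side of the threshold under median-of-ratios scaling, no filter and a stricter filter. With 2 groups alone 44 did and 4 gained a call, with voom 44 and 4, and with log2(CPM + 1) 45 did, 2 gained a call and Pitx1 in E20/p53 against p53 reversed to 0.60. Log2 differences also reversed when a block or library was left out. Without E20 4-6 these were Dlx1 (0.35), Dlx2 (0.18) and Pitx1 (0.19) in E20 against p53, and Dlx5 (0.21), Lhx8 (0.039) and Pitx1 (-1.45) in E20/p53 against E20. Without E20/p53 1-3 these were Dlx2 (-0.066) and Msx2 (0.086) against p53, and Dlx5 (1.11) and Pitx1 (-4.27) against E20. Without E20/p53 4-6 Pitx1 was 0.11 against WT and 4.48 against p53. Leaving out 1 library at a time, Dlx1 in E20 against p53 ran from -0.173 to 0.045 (above 0 without E20 library 4, at 0.035, or 6), Dlx5 in E20/p53 against E20 from -0.739 to 0.003 (above 0 without E20/p53 library 2), and Lhx8 in E20/p53 against WT from -0.027 (without E20/p53 library 1) to 0.201. The cause was not tested.

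With 6 block means, which leave fewer samples, limma called 8 genes in E20 against WT (8408 with all libraries), 1 in p53 against WT (8246), 1 in E20/p53 against WT (7327) and 0 in E20 against p53 (4724), E20/p53 against E20 (6488) and E20/p53 against p53 (3931). At an unadjusted p under 0.05 these 6 counts were 2069, 1624, 1570, 625, 972 and 421. Of the 8 genes here, 0 were called in each comparison. E20 against p53 called 7812 genes without E20/p53 1-3 and 7845 without E20/p53 4-6. Without E20/p53 4-6, E20/p53 called 9895 genes and 7 of the 8 against E20, and 9725 genes and 8 of the 8 against p53. p53 against WT alone in the fit called 7 of the 8, where it called 80.7% of all genes tested.

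With 1 library left out at a time, genes called ran from 7144 to 8559 in E20 against WT, 3367 to 4893 in E20 against p53, 5846 to 6831 in E20/p53 against E20, 5921 to 7608 in E20/p53 against WT, 2334 to 4695 in E20/p53 against p53 (2423, 2334 and 2472 without p53 library 1, 2 and 3) and 6972 to 8407 in p53 against WT. Of the 8 genes, 5 to 8, 3 to 4, 4 to 6, 5 to 6, 3 to 5 and 4 to 5 were called, in that order.

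The replicate numbers share no stated animal or day, and same-numbered libraries did not deviate together (r -0.055 to 0.075; 6 of 21 correlated best with their own number), so they do not pair the libraries. A fit with the replicate block called 6407 genes in E20/p53 against p53; of the 48 gene comparisons 37 kept direction and side, 5 gained a call, Pitx1 in E20 against WT lost it (adjusted p = 0.0606, with 0.000406 to 0.58 over all alternatives) and 5 reversed: Dlx1 (0.35), Dlx2 (0.19) and Pitx1 (1.60) in E20 against p53, Lhx8 in E20/p53 against WT (-0.40) and Pitx1 in E20/p53 against p53 (3.07). Depth limits Barx1, Lhx8 outside p53 and Msx2 in E20, which hold 20, 14 and 17 reads.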
